A study of Homo sapiens with 4 samples.

Results

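The 9 genes described here encode parts of the route that collects ubiquitinated, misfolded proteins into an aggresome and hands them to autophagy: UBB, VCP, UBQLN1, SQSTM1, NBR1, OPTN, BAG3, MAP1LC3B and GABARAPL1. They were chosen by name for their known roles, with earlier results of these data known. All probes carrying one of these symbols in the table of normalized values were taken. That gave 13 probes of 58201 on the array and 9 genes of 34755 symbols, with 1 probe for 5 of the genes and 2 probes for 4 of them. Of the 13 probes, 12 were well above background in both colours on all 4 arrays, and every one of the 9 genes had at least 1 such probe.

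Proteins that escape refolding and the proteasome are tagged with ubiquitin and carried along microtubules by dynein to a perinuclear deposit, the aggresome. HDAC6, a cytoplasmic deacetylase, links the ubiquitinated cargo to dynein through its ubiquitin-binding zinc finger. Autophagy receptors such as p62 then bind the ubiquitin on the cargo and, through a short LC3-interacting region, the lipid-anchored ATG8 proteins of the growing autophagosome, which fuses with the lysosome. Cancer cells that make much protein are known to lean on this route when the proteasome is overloaded, which is one reason HDAC6 inhibitors have been developed.

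SUM149 is an established line of inflammatory breast cancer, and its cells were either left untreated or kept for 3, 6 or 12 hours in 2.5 uM Ricolinostat (ACY1215), a small-molecule inhibitor of HDAC6. Each of the 4 conditions was measured once, on 1 two-colour Agilent array, with the sample's RNA in Cy5 and a reference in Cy3 that is labelled as pooled from untreated and treated SUM149 cells. All 4 arrays lay on 1 slide, and cells given vehicle alone were not analysed here. With 1 array a group there is no replicate error and no test, so no p-value is given, and the 3 comparisons share the untreated array.

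Values are log2 ratios of Cy5 over Cy3 after background correction and normalization, and a change is the ratio at a time point minus the ratio of the untreated array. Probes repeated on the array gave the only measure of error: the SD of the log2 change between their spots was 0.15 at 3 h, 0.12 at 6 h and 0.11 at 12 h, over 297 probes. This technical SD leaves out the variation between cultures. Among genes with 2 probes well above background, the probes' changes at 12 h lay apart by a median of 0.20, with a 90th percentile of 0.57 over 4029 genes. The median spot gave a Cy5 signal of 36 to 40 over a background of 24, and no spot was saturated. The 7 epithelial marker genes examined, keratins, EPCAM and E-cadherin among them, were above background in Cy5 on every array. Of 10 markers of fibroblasts, leukocytes and endothelium, 9 were also above background, with changes at 12 h between -0.26 and 0.67, and their part in the results was not tested. Their levels were far lower: median log2 Cy5 on the untreated array was 7.33, 7.66 and 6.95 for these lists, beside 12.5 for the epithelial markers. Patches of spots with a deviating reference signal or outlier flags, called damaged areas here, covered 3.33% of the spots of the untreated array, 4.72% at 3 h, 0.186% at 6 h and 0.00821% at 12 h.

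Across the 9 genes the changes ran from -0.39 for SQSTM1 to 1.10 for MAP1LC3B at 12 h. MAP1LC3B and GABARAPL1, the ATG8 modifiers that coat the autophagosome, showed the largest increases, followed by the receptor OPTN and the ubiquitin gene UBB. SQSTM1, which encodes the receptor p62, was lower at all 3 times, and VCP, UBQLN1 and BAG3 stayed close to their untreated ratios. The median of the 9 changes was 0.17 at 3 h, 0.27 at 6 h and 0.41 at 12 h, beside 0.0075, 0.016 and 0.014 over all genes measured. The RNA came from whole cultures, so a change per cell and a change in the share of cells that express a gene cannot be told apart. When each array was instead only centred on its median, the median of the 9 genes did not grow with time. It came to 0.21 at 3 h, 0.05 at 6 h and -0.03 at 12 h, while that of all genes came to 0.08, -0.08 and -0.16.

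At 3 h, 0 of the 9 genes were at least 2-fold higher and 0 at least 2-fold lower, where 1.69% and 0.366% of all genes measured passed these limits. At 6 h, 1 gene, MAP1LC3B, was at least 2-fold higher, against 2.81% of all genes, and 0 were at least 2-fold lower, against 0.939%. At 12 h, MAP1LC3B was again the 1 gene past 2-fold higher, against 2.34%, and 0 were past 2-fold lower, against 1.12%. MAP1LC3B fell short of 2-fold under median centring (0.84 at 6 h and 0.76 at 12 h), with the scanner software's processed signals (0.82 and 0.89) and in Cy5 alone (0.76 and 0.74). At a limit of 1.5-fold, 1 of the 9 genes was higher at 3 h and 1 at 6 h, MAP1LC3B at both times, where 6.87% and 9.4% of all genes were. At 12 h 3 genes passed 1.5-fold, MAP1LC3B, GABARAPL1 and OPTN, where 8.09% of all genes did. None of the 9 genes was 1.5-fold lower at any time, where 1.96%, 4.42% and 5.13% of all genes were at 3, 6 and 12 h. Changes larger than 1 technical SD, in either direction, were found for 6 of the 9 genes at 3 h, 7 at 6 h and 6 at 12 h, where 50.3%, 64.3% and 65% of all genes measured had one, so that the count at 12 h was near the share over all genes.

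**Figure D1:**
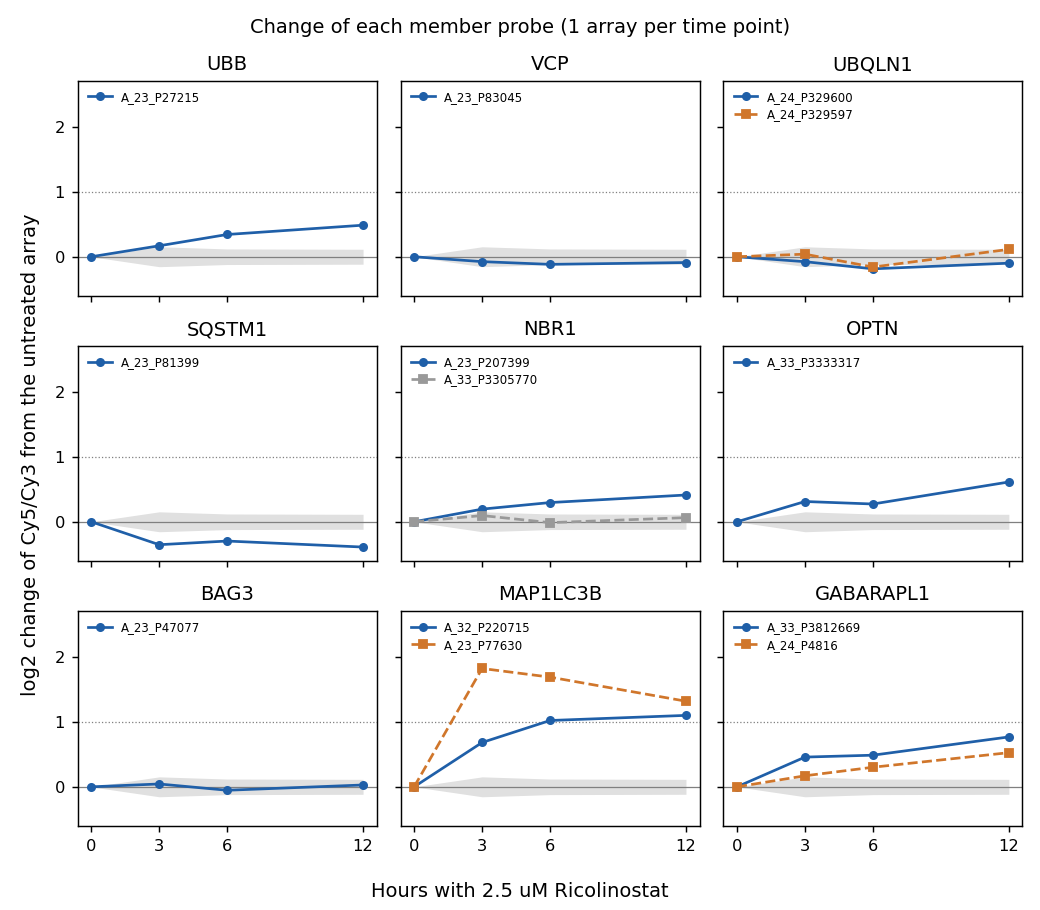
Change in log2(Cy5/Cy3) from the untreated array for each of the 13 probes of the 9 genes against hours with 2.5 uM Ricolinostat, 1 array per time point. The grey band is 1 technical SD, the dotted line 2-fold, and the grey squares of NBR1 a probe that was not above background; both MAP1LC3B probes lie past 2-fold at 6 and 12 h, while VCP, UBQLN1 and BAG3 stay at or near the band.

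Promoter sequences are shown for the 2 genes with the largest increases, which moved in the same direction, and for VCP, which hardly moved, so that the regions can be read side by side. Each is the 250 bases upstream of the gene's annotated start in RefSeq (GRCh38.p14), read 5′ to 3′ on the strand of the gene, with capitals marking matches to the motifs searched. MAP1LC3B lies at chr16:87392086-87392335 on the plus strand, GABARAPL1 at chr12:10212627-10212876 on the plus strand and VCP at chr9:35072626-35072875 on the minus strand.
MAP1LC3B: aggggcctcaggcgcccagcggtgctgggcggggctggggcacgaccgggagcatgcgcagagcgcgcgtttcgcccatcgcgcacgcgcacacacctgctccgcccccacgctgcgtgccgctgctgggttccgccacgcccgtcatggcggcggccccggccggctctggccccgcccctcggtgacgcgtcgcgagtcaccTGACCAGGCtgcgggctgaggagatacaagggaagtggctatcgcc
GABARAPL1: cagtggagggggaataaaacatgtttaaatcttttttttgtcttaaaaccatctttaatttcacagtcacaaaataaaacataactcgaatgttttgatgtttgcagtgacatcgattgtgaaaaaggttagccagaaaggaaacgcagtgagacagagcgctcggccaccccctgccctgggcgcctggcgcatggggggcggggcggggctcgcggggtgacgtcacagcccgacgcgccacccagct
VCP: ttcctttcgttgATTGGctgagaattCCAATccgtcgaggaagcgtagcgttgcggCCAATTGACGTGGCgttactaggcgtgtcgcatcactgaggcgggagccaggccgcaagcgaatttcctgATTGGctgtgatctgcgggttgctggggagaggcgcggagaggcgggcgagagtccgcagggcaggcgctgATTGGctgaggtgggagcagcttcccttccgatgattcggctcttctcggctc
The motifs, searched on both strands, were TTCNNGAA and GAANNTTC for heat shock elements, TGACNNNGC for the antioxidant response element, CACGTG for the core of the CLEAR element of lysosomal genes, and CCAAT. The antioxidant letters occurred in 4 of the 9 genes, MAP1LC3B, UBB, UBQLN1 and VCP, and in 10.9% of 35116 promoters of the same length. The MAP1LC3B match, TGACCAGGC, lay 46 bases before the start. CCAAT occurred in NBR1, UBB and VCP, 3 of the 9, and in 32% of all promoters; in VCP 1 CCAAT adjoins the antioxidant match. None of the 9 genes held TTCNNGAA, GAANNTTC or CACGTG in this window, where 6.62%, 5.78% and 6.34% of all promoters did. Genes with several annotated starts (SQSTM1, OPTN, UBB and NBR1) were counted if any of their windows matched. The shares over all promoters count each promoter singly, so they are not in the same unit as the counts of genes. The MAP1LC3B promoter was 74.8% G or C with 33 CpG, that of GABARAPL1 51.6% with 15 and that of VCP 60.8% with 23, beside medians of 58% and 11 over all promoters. A match is a run of letters, and binding of a factor was not measured.

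The first step of the route is the ubiquitin tag and the handling of tagged proteins. UBB encodes a chain of ubiquitin units and is known to be raised under protein stress. Its probe, A_23_P27215, gave log2 ratios of 0.11 untreated, 0.28 at 3 h, 0.45 at 6 h and 0.59 at 12 h. Each treated array was thus above the one before it in time, with changes of 0.17, 0.34 and 0.48 from untreated, or 1.40-fold at 12 h. The Cy5 channel changed by 0.52 at 12 h and the reference channel by 0.03. Under median centring the order in time was not kept: the changes were 0.21, 0.05 and -0.03, so the sign at 12 h turned. Relative to the median of all genes under that setting they were 0.14, 0.13 and 0.13. Its spots were the brightest of the 13 probes, with a Cy5 signal of 47903 on the untreated array.

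VCP, also called p97, is the ATPase that pulls ubiquitinated proteins out of complexes and membranes. Its log2 ratios were -0.07, -0.15, -0.19 and -0.16 from untreated to 12 h on probe A_23_P83045. The changes of -0.08, -0.12 and -0.09 were all below 1 technical SD. Both channels were lower than on the untreated array, Cy5 by 0.28 and Cy3 by 0.19 at 12 h. Under median centring the change at 12 h was -0.54, which was -0.39 relative to the median of all genes.

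UBQLN1 encodes ubiquilin-1, a shuttle that binds ubiquitin chains with one end and the proteasome with the other. On its brighter probe, A_24_P329600, the log2 ratios were 1.43, 1.36, 1.25 and 1.34. The changes were -0.08, -0.19 and -0.10, and only that at 6 h was larger than 1 technical SD. The second probe, A_24_P329597, gave changes of 0.04, -0.16 and 0.11. The probes had opposite signs at 3 and 12 h, and their mean at 12 h was 0.0072, so no direction can be given for UBQLN1 at those times. Under median centring the brighter probe stood at 0.03 at 3 h and at -0.44 at 12 h.

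The genes SQSTM1, NBR1 and OPTN encode receptors that tie ubiquitinated cargo to the autophagosome, and they did not move together. SQSTM1 encodes p62, the receptor that condenses with ubiquitinated proteins and is itself degraded by autophagy. Its probe A_23_P81399 had a log2 ratio of 0.86 on the untreated array and of 0.50, 0.56 and 0.47 at 3, 6 and 12 h. All 3 treated arrays lay below the untreated one, with changes of -0.35, -0.30 and -0.39, each larger than 2 technical SDs. Relative to all genes measured, 89.7% had a larger change than SQSTM1 at 12 h.

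The 2 channels of SQSTM1 differed in how they gave this change. The Cy5 signal was 4204.5 on the untreated array and 2358, 2787 and 2769 on the treated arrays. The Cy3 signal of the reference was 1547 untreated, 1054 at 3 h, 1508 at 6 h and 1815 at 12 h. On the normalized scale Cy5 was lower by 0.93 at 3 h, while the reference was also lower there, by 0.57. The reference is labelled as the same pool on all arrays, and the part of its shift in the ratio was not tested. From the scanner software's own processed signals the change at 3 h was -1.25, past 2-fold, and under median centring that at 12 h was -0.76. The direction was the same in all 9 alternatives at each time, with changes at 12 h between -0.76 and -0.28. The mean over probes and the weaker detection filter could not change it, since its only probe had passed the stricter filter.

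NBR1 is a receptor related to p62 that binds ubiquitin and ATG8 proteins and gathers cargo together with it. Its log2 ratios on probe A_23_P207399 were -0.69, -0.49, -0.39 and -0.28, so that each later array was higher. The changes were 0.19, 0.30 and 0.41, the last of them 1.33-fold. The Cy5 channel alone changed by 0.30, 0.07 and 0.26, and the reference by 0.10, -0.23 and -0.16. The second probe, A_33_P3305770, was not above background, and no change is read from it. Under median centring the order in time was not kept: the changes of NBR1 were 0.32, 0.09 and 0.06. Relative to the median of all genes they were 0.24, 0.17 and 0.22.

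OPTN encodes optineurin, the receptor that TBK1 phosphorylates and that acts on damaged mitochondria, bacteria and protein aggregates. Its probe A_33_P3333317 gave log2 ratios of -0.48, -0.17, -0.21 and 0.13. The changes were 0.31 at 3 h, 0.27 at 6 h and 0.61 at 12 h, so OPTN was flat between 3 and 6 h and 0.34 higher at 12 h than at 6 h. In Cy5 alone the change at 12 h was 0.48. Over the alternatives that value ranged from 0.42 to 0.75. This was among the dimmer probes of the set, with Cy5 signals of 199, 294, 232.5 and 258.

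BAG3 is the co-chaperone that hands clients of HSP70 to the aggresome and to p62, and it is a well-known target of the heat shock factor HSF1. Its log2 ratios on probe A_23_P47077 were 0.53, 0.57, 0.47 and 0.55. The changes of 0.04, -0.05 and 0.03 were smaller than 1 technical SD at all 3 times. The sign at 3 and 12 h was not stable, since the authors' table gave -0.06 at 3 h and median centring gave -0.23 at 12 h. The TTCNNGAA and GAANNTTC letters were not found in the 250 bases before its start, which were 78% G or C.

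MAP1LC3B encodes LC3B, the ATG8 protein that is joined to a lipid of the autophagosome membrane and to which p62, NBR1 and optineurin bind. On probe A_32_P220715, the brighter of its 2 probes, the log2 ratio was 0.94 on the untreated array, 1.62 at 3 h, 1.96 at 6 h and 2.04 at 12 h. All 3 treated arrays were higher than the untreated one, with changes of 0.68, 1.02 and 1.10. These are ratios of 1.60, 2.03 and 2.14 to the untreated value. Between 6 and 12 h the ratio differed by 0.08, less than 1 technical SD. Of the 20478 genes measured at 12 h, 353 had a larger change, or 1.72%.

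The second MAP1LC3B probe, A_23_P77630, had log2 ratios of 0.22, 2.04, 1.91 and 1.54. Its changes of 1.82, 1.69 and 1.32 were larger than those of the brighter probe at every time, and unlike them were smaller at 12 h than at 6 h, by 0.37. At 3 h this spot lay in a damaged area, in which 22.5% of the surrounding spots were deviating or flagged. The Cy3 signal there was 111, beside 426.5, 430 and 457 on the other arrays, while the Cy5 signal was 735 at 3 h and 635 on the untreated array. At 6 and 12 h it lay in no damaged area, and its Cy5 signals were 2000 and 1438.5.

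The channels also parted for the brighter MAP1LC3B probe at 3 h. Its Cy5 signals were 3223.5, 3512, 4832 and 4389.5, and its Cy3 signals 1142.5, 713, 970 and 953. On the normalized scale Cy5 changed by 0.00 at 3 h, 0.76 at 6 h and 0.74 at 12 h, and the reference by -0.68, -0.26 and -0.36. The change in ratio at 3 h was thus the change of the reference channel, although this spot lay in no damaged area. At 6 and 12 h Cy5 alone was higher by less than 2-fold on this probe. On the other probe Cy5 alone changed by 0.15 at 3 h, 1.69 at 6 h and 1.35 at 12 h. At 6 and 12 h both probes, and Cy5 alone on each, were therefore above the untreated array, while at 3 h Cy5 alone gave 0.00 and 0.15.

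A probe for an LC3B pseudogene, a near-copy of the gene, gave a separate reading. This probe, A_21_P0013717, was above background on all arrays, with log2 ratios of 0.99, 1.56, 1.76 and 1.89. Its changes were 0.57, 0.76 and 0.89, and its Cy5 channel alone changed by 0.56, 0.71 and 0.73. It followed the order of the brighter MAP1LC3B probe, and in Cy5 it was already higher at 3 h. Whether it reads the pseudogene or MAP1LC3B itself was not tested, and it is not counted among the 13 probes. The other 3 probes for LC3B pseudogenes were not above background.

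GABARAPL1 belongs to the second branch of the ATG8 family, which acts in cargo recruitment and in late steps of autophagosome formation. Its brighter probe, A_33_P3812669, had log2 ratios of -0.61, -0.15, -0.12 and 0.16. The changes were 0.46, 0.49 and 0.77, or 1.70-fold at 12 h. The second probe, A_24_P4816, gave log2 ratios of 0.48, 0.65, 0.79 and 1.01 and changes of 0.17, 0.30 and 0.52. Both probes were above the untreated array at all 3 times and highest at 12 h, and they lay 0.28 and 0.22 higher at 12 h than at 6 h. In Cy5 alone the brighter probe changed by 0.32, 0.31 and 0.48 and the second by 0.27, 0.26 and 0.25, so that the further increase at 12 h was seen in Cy5 on the first of them. Of all genes measured, 4.73% had a larger change at 12 h.

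**Figure D2:**
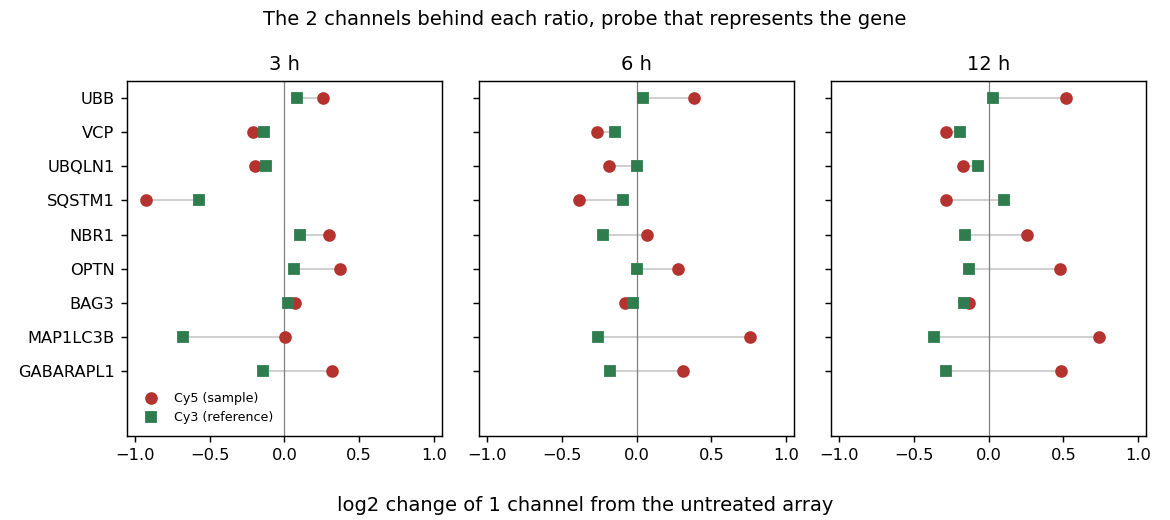
Log2 change of each channel from the untreated array at 3, 6 and 12 h for the probe that represents each of the 9 genes, with red circles for Cy5 (the sample) and green squares for Cy3 (the reference). The distance between them is the change in ratio; for MAP1LC3B at 3 h the circle lies at 0.00 and the square at -0.68, and for SQSTM1 at 3 h both lie below 0.

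The order of the genes by change at 12 h was MAP1LC3B at 1.10, GABARAPL1 at 0.77, OPTN at 0.61, UBB at 0.48, NBR1 at 0.41, BAG3 at 0.03, VCP at -0.09, UBQLN1 at -0.10 and SQSTM1 at -0.39. UBB and NBR1 differed by less than 1 technical SD, as did VCP and UBQLN1, and BAG3 and VCP differed by about that much. OPTN and UBB, and GABARAPL1 and OPTN, lay further apart than 1 technical SD but nearer than the median gap between probes of 1 gene. Under median centring, and relative to the median of all genes there, the values at 12 h were 0.92 for MAP1LC3B, 0.58 for GABARAPL1, 0.57 for OPTN, 0.22 for NBR1, 0.13 for UBB, -0.07 for BAG3, -0.28 for UBQLN1, -0.39 for VCP and -0.60 for SQSTM1.

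**Figure D3:**
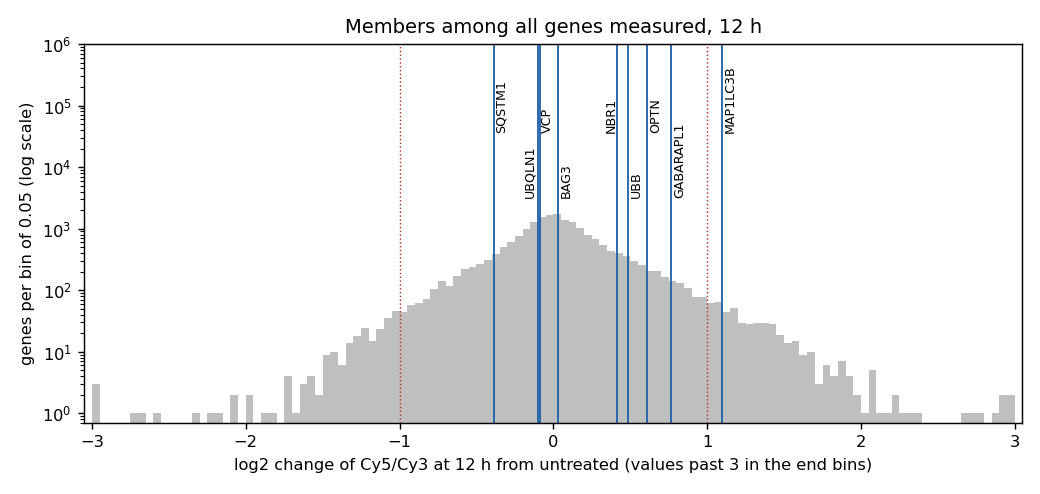
Number of genes per bin of log2 change at 12 h over the 20478 genes measured, on a log axis, with blue lines at the 9 genes and dotted lines at 2-fold. MAP1LC3B lies beyond the upper dotted line, and the other genes lie between -0.39 and 0.77.

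**Figure D4:**
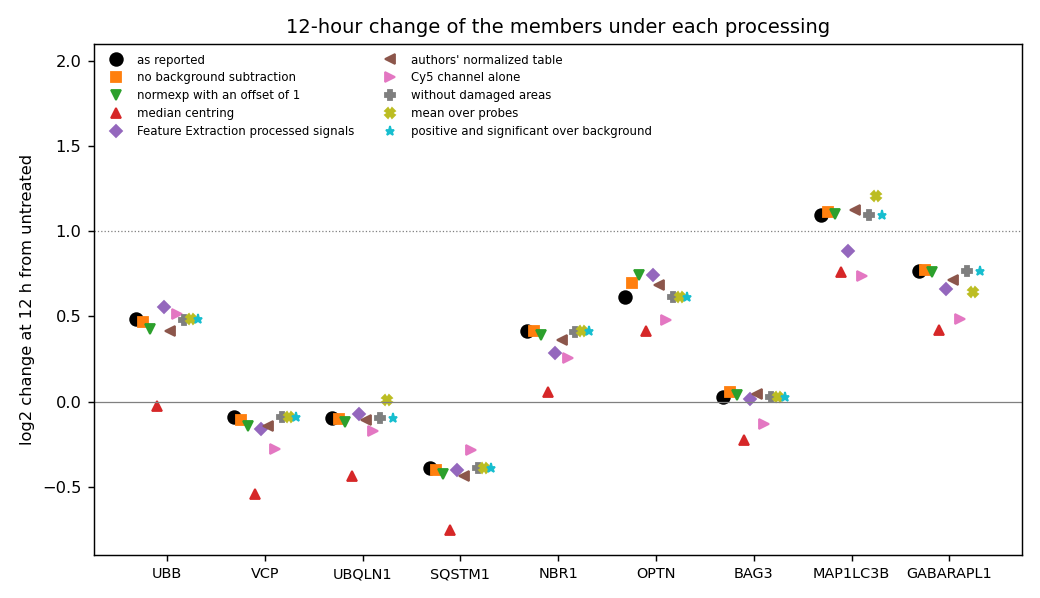
Log2 change at 12 h of the 9 genes as reported (black circles) and under 9 alternative ways of processing the arrays, with the dotted line at 2-fold. Median centring (red triangles) gives lower values for all 9 genes and turns the sign of UBB and BAG3; MAP1LC3B stays between 0.74 and 1.21 and SQSTM1 between -0.76 and -0.28.

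The genes whose 3 changes were nearest to those of MAP1LC3B, out of 19890 genes measured at all times, were YIPF1, NPTN, PLA2G4A, TMTC3 and CTDSP2. Their Euclidean distances from it over the 3 log2 changes were 0.04, 0.06, 0.06, 0.08 and 0.08. The 3-h value used for MAP1LC3B was the change of its reference channel (Cy5 0.00, Cy3 -0.68), so the match at 3 h is not a match in Cy5. YIPF1, for example, changed by 0.65, 1.01 and 1.08. PLA2G4A lay in a damaged area of at least 1 array. None of the other 8 genes of the set was among these 5, as would be likely for any 8 of 19890 genes.

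A wider list of 102 genes of the same route that were on the array, none of them among the 9, was described in the same way. It was also written with earlier results of these data known. At 12 h 96 were measured, with a median change of 0.22, after 0.14 at 3 h and 0.18 at 6 h. Of these, 7 were at least 2-fold higher and 2 at least 2-fold lower at 12 h, shares to be read against 2.34% and 1.12% of all genes measured. At 6 h 6 were at least 2-fold higher and 1 lower, where 2.81% and 0.939% of all genes measured were. At 3 h 5 were higher and 0 lower, where 1.69% and 0.366% of all genes were. Without the damaged areas the count of higher genes at 3 h was 2. Under median centring that at 12 h was 4, with a median of -0.05 for the list beside -0.16 for all genes.

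The list nearest to MAP1LC3B and GABARAPL1 holds the other ATG8 modifiers and the enzymes that process them. GABARAPL2, a further ATG8 protein, changed by 0.62, 0.90 and 1.04. ATG4A, a protease that trims ATG8 proteins for lipid attachment, changed by 0.68, 1.21 and 1.06, and ATG5, part of the complex that attaches the lipid, by -0.04 at 12 h on its brighter probe, the lowest of this list, with 0.57 on its other probes. Under median centring GABARAPL2 stood at 0.72 and ATG4A at 0.89 at 12 h, below 2-fold but in the same direction. In all, 2 of the 12 measured ATG8 modifiers and enzymes were at least 2-fold higher at 12 h, against 2.34% of all genes measured. None was 2-fold lower, against 1.12%, and the median was 0.30.

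Among genes of autophagy initiation and membrane supply, 3 of 16 measured were at least 2-fold higher at 12 h, against 2.34% of all genes. None was 2-fold lower, against 1.12%, and the median was 0.30. WIPI1, which reads the lipid mark on the forming membrane, changed by 0.88, 1.15 and 1.66. RB1CC1, the FIP200 scaffold of the initiating kinase complex, changed by 1.11, 1.38 and 1.35, and ATG2A, a lipid transfer protein, by 0.84, 1.13 and 1.14. The other ATG2A probes averaged 0.75 at 12 h, and median centring gave 0.80. ULK2, one of the initiating kinases, was the lowest of this list at -0.43.

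In the lysosome list 2 of 11 measured genes were at least 2-fold higher at 12 h, against 2.34% of all genes. None was 2-fold lower, against 1.12%, and the median was 0.49. MITF, a transcription factor of the family that acts on CLEAR elements, changed by 1.60, 1.82 and 1.46, with 0.85 at 12 h on its other probes. CTSL, a lysosomal protease, changed by 1.45 at 12 h, but on the untreated array its probe lay in a damaged area, and its other probe gave -0.12. CTSD, another lysosomal protease, was the lowest at -0.26.

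The genes that act with UBB, VCP, BAG3 and the receptors showed smaller medians. Of 7 ubiquitin genes and shuttles, 0 passed 2-fold in either direction at 12 h and the median was -0.31. Among all genes measured, 2.34% were 2-fold higher and 1.12% lower at that time. UBQLN2, a shuttle related to UBQLN1, was lowest at -0.50, after -0.40 at 3 h and -0.68 at 6 h. Of 10 VCP cofactors 0 passed 2-fold, with a median of 0.25, from -0.40 for the deubiquitinase ATXN3, whose other probes averaged -0.09, to 0.56 for UFD1L, which binds VCP together with NPLOC4. Of 9 BAG3 partners and BAG family genes, 1 was at least 2-fold lower, against 1.12% of all genes. That was BAG2, an inhibitor of the ubiquitin ligase STUB1, at -0.44, -0.99 and -1.06. STUB1 itself was highest at 0.42 (0.01 under median centring).

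Of 15 other selective autophagy receptors and regulators, 0 were at least 2-fold higher at 12 h, against 2.34% of all genes measured. At least 2-fold lower was 1, against 1.12%. That gene was KEAP1, the adaptor that p62 sequesters away from NRF2, with changes of -0.89, -1.34 and -1.29. Its probe lay in a damaged area of the 3-h array but not of the others. FAM134B, a receptor for the endoplasmic reticulum, was highest at 0.82, after 0.23 and 0.74. These counts use 1 probe per gene, and for BNIP3L, also of this list, they depend on that choice. The probe used changed by -0.58 at 12 h, though by 0.48 in Cy5 alone. The mean over its other probes was 1.49, past 2-fold higher.

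HDAC6, the target of the compound and the link between cargo and dynein, stood lowest of the 16 measured genes of aggresome transport. Its brighter probe, A_23_P250455, changed by -0.41, -0.25 and -0.51, and its other probe, A_33_P3320619, by -0.25, 0.00 and -0.20. Both probes were below the untreated array at 3 and 12 h, and the array reads transcript, not the enzyme's activity. The second probe was dim, with Cy5 signals of 62.5, 58.5, 54 and 45 where the median background was 24. DYNLT1, a light chain of dynein, was highest of this list at 0.75, after 0.43 and 0.63, with 0.13 on its other probe. None of the 16 genes passed 2-fold at 12 h, where 2.34% of all genes were higher and 1.12% lower, and the median was 0.19.

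**Figure D5:**
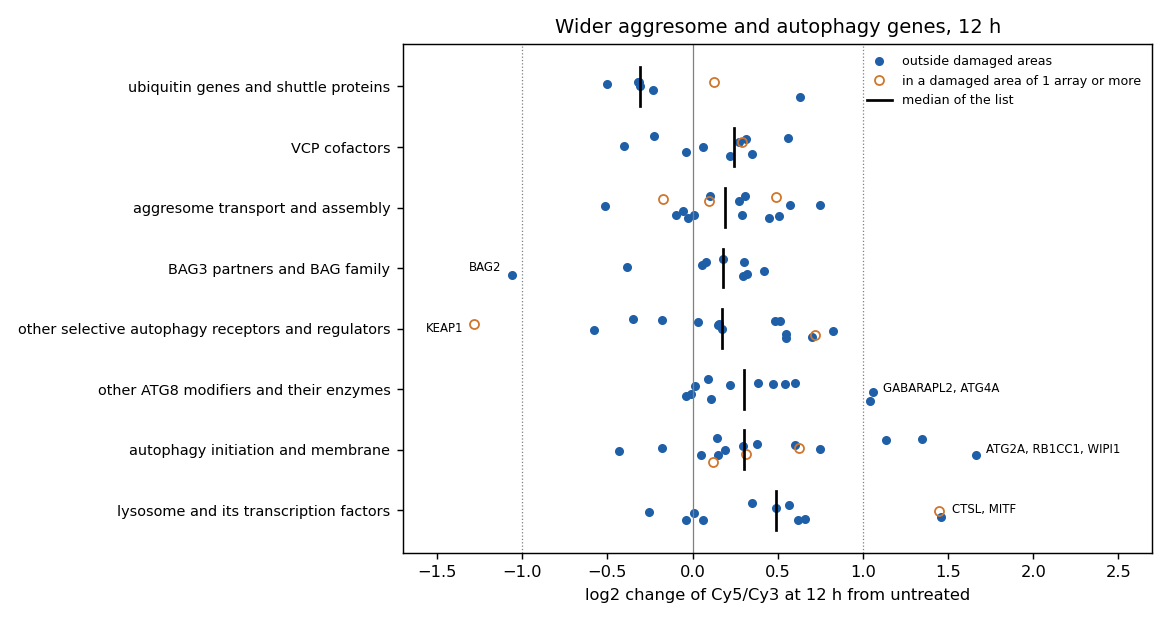
Log2 change at 12 h of each measured gene of the 8 wider lists, 96 genes in all, with the median of each list as a black bar and dotted lines at 2-fold. Open circles are probes in a damaged area of at least 1 array, and genes past 2-fold are named; 7 lie beyond the upper line and 2 beyond the lower.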

How the data were processed

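Total RNA of SUM149 cells, 1 array per condition, was labelled with Cy5 and hybridised against a pooled Cy3 reference. For each array the authors deposited spot intensity values and the background around each spot in both channels, a log10 ratio corrected by the scanner software, and other columns that flag outliers and detection, per the file headers. Normalized log2 ratios of all arrays were deposited in 1 table, by a normalization not given in the sources used here. All of its columns of sample values were used.

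Background in the median spot intensities was removed with normexp (offset 50). Control spots were then dropped, outlier spots set aside, and the arrays put through loess within and Aquantile between arrays, with limma 3.58.1 in R 4.3.3. Repeated spots were averaged per probe. A gene was read from its probe of highest mean Cy3 signal, and counted as measured where the well-above-background flags of both colours held for it on each array of the comparison. Symbols follow the deposited table. A damaged area is a window of 13 rows by 7 columns with over 10% of its spots flagged or more than 2-fold from the other arrays in Cy3. Summaries were made with Python 3.11.15, pandas 2.3.3 and numpy 2.4.6. The steps were tested on simulated data for 12 h against untreated, with 200 of 34631 spots changed. The planted changes were made in Cy5 alone and were all larger than 2-fold. Of these 58% passed 2-fold, against 0 unchanged spots, and a median share of 0.707 of each planted change was recovered, so fold changes can be understated. The simulated noise was too small to carry unchanged spots past 2-fold, and no shift of the reference was simulated. The 0 therefore gives no rate of false calls for the real arrays. The number of arrays limits the precision.

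The 9 genes and all lists were chosen with earlier results of these data known. Named genes are the 9 with all probes, HDAC6, and the highest and lowest gene of each list at 12 h. Also named are every list gene past 2-fold at 12 h and the 5 genes nearest to the most changed of the 9. Outside this rule, the pseudogene probes and BNIP3L were added after their values were seen. A gene that this rule names is not reported here. The alternatives were no background subtraction, an offset of 1, median centring, the software's processed signals, the authors' table, Cy5 alone, damaged areas left out, the mean over probes, a weaker detection filter and a 1.5-fold limit. The RefSeq promoter table (GRCh38.p14) was matched by symbol and held all 9 genes.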

Additional observations from a re-analysis of the deposited data

How the results depend on the processing

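No paired analysis was possible because every condition was measured once. The median of the 9 genes came to 0.0462 at 6 h and -0.0284 at 12 h under median centring, to 0.0683 and 0.256 with Cy5 alone, and to 0.284 at 12 h with the software's processed signals. Under each of these 3 settings 0 of the 9 genes were at least 2-fold higher at 6 h and at 12 h, and the processed signals gave 1 at least 2-fold lower at 3 h, SQSTM1. The mean over probes gave 1 gene at least 2-fold higher at 3 h, MAP1LC3B. That mean includes the change of 1.82 of its probe in a damaged area, beside 0.68 for the brighter probe. The 1.5-fold limit gave 1 at 3 h and 3 at 12 h. For the wider list, the median was 0.0172 at 6 h and -0.0489 at 12 h under median centring. The median of all genes under that setting was -0.084 at 6 h and -0.159 at 12 h. Its count of higher genes at 3 h was 8 without background subtraction, with an offset of 1 and in the authors' table, 3 with Cy5 alone and 2 without damaged areas. That at 12 h was 4 under median centring. The 1.5-fold limit gave 14, 16 and 18 higher, and 1 and 3 lower at 3 and 6 h. Lower genes at 6 h numbered 2 without background subtraction, with an offset of 1, under median centring, with the processed signals and in the authors' table. At 12 h 1 was lower with the processed signals and with Cy5 alone. Of the 27 single changes of the 9 genes, 17 moved by more than the technical SD under median centring. With Cy5 alone 12 moved, and with the processed signals 9. The mean over probes moved 3 and an offset of 1 moved 1, while the other 4 settings moved 0. Among those 4, the weaker detection filter could move none, since the probes read had already passed the stricter one. None of these probes lay in a damaged area, so leaving such areas out could act only through the normalization. Without replicate arrays, no change can be set against the variation between cultures. Dim probes leave small changes unresolved.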
